A study of Mus musculus with 24 samples.

Results

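The experiment described here is the comparison of BV2 cells treated with TGF-β with control BV2 cells, over every gene of the deposited count table: 13290 listed genes in 6 libraries, out of 24 libraries in the series. BV2 is an immortalized mouse microglial line, a model of the resident macrophages of the brain that grows without neurons or astrocytes. For 72 h its cells received TGF-β or IL-10, both at 50 ng/mL, or LPS, at 100 ng/mL; others were controls, for which the labels name no agent or time, and RNA was taken from the cells and from the extracellular vesicles (EVs) they released. The 8 groups (4 treatments, in cells and in EVs) hold 3 libraries each. All 6 libraries compared here come from 1 line, and the sources used here do not say whether libraries came from separate cultures. The p-values therefore rest on a spread between libraries that may be technical. Of the listed genes, 11798 had enough counts for the test. In a bulk sample, fewer cells that express a gene and less RNA per cell cannot be told apart.

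TGF-β signals through a pair of type I and type II receptor kinases that phosphorylate SMAD2 and SMAD3, which enter the nucleus with SMAD4. Inhibitory SMADs and the SKI and SKIL corepressors, themselves products of the pathway, limit the response. In the brain, TGF-β is a main signal for the homeostatic state of microglia, in which surface sensors such as TMEM119, CX3CR1 and P2Y receptors are expressed and inflammatory genes are kept low.

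The control cell libraries held 26910894 to 31903766 counts and the TGF-β cell libraries 26136825 to 34630767. Log2 CPM correlated at 0.9917 to 0.9964 within a group and at 0.9744 to 0.9803 between groups, and no 2 libraries of a group agreed within sampling noise. Levels are given as CPM (counts-per-million of a library) with TMM scaling, for the 3 control libraries and then for the 3 TGF-β libraries. All 10 macrophage and microglial markers checked (Ptprc, Aif1, Cd68, Itgam, Csf1r, Tyrobp, Fcer1g, Spi1, Adgre1 and Laptm5) were present, and their CPM summed to 8823 to 9128 in control and 9811 to 11057 in TGF-β libraries. The neuronal marker Rbfox3 was at 0 in all 6 libraries, and the 3 listed neuron genes summed to at most 0.682 CPM. Col3a1, the only listed fibroblast gene, was also at 0 in all 6. Endothelial genes, 2 of 5 listed, summed to 123 to 144 CPM in control and 121 to 148 CPM in TGF-β libraries. Nearly all of this came from 1 gene, the only 1 tested, which was not called. The other, Pecam1, averaged 0 CPM per kb of exon in control and 0.0138 in TGF-β libraries. The 1 listed oligodendrocyte gene stood at 0.870 to 1.93 CPM, and the 2 listed B cell genes summed to at most 0.682 CPM. Of the astrocyte list 3 of 5 genes were listed, summing to 6.20 to 8.07 CPM in control and 7.12 to 7.61 CPM in TGF-β libraries. Of the neutrophil list 2 of 5 genes were listed, summing to 0.916 to 1.41 CPM and 3.81 to 7.26 CPM, and 1 of them was called higher; its part in the results below was not tested.

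With the edgeR quasi-likelihood test and Benjamini-Hochberg adjustment over the 11798 genes, 1715 genes (14.5%) were higher and 1818 (15.4%) lower after TGF-β at adjusted p under 0.05. Changes past 2-fold were fewer, with 377 genes higher (3.20%) and 439 lower (3.72%). The groups did not overlap for 5299 genes (44.9%), called or not. The median log2 difference over all genes tested was 0.01. These percentages are the background for the gene groups below, each of which is described by the number of its tested members that rose, fell or were not called.

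**Figure D1:**
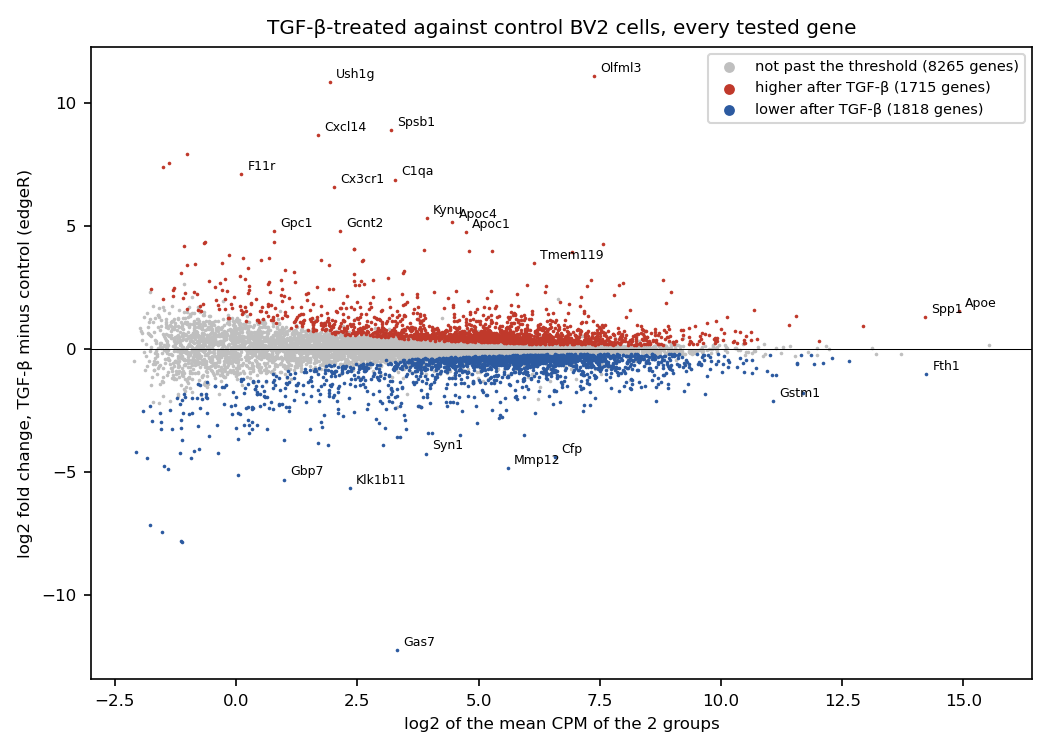
Log2 difference between TGF-β and control cells (vertical axis) against the log2 of the mean CPM of the 2 groups (horizontal axis), 1 point per gene tested, with genes called higher and lower in colour and some genes named. Most genes lie near 0, while Olfml3, Ush1g and Spsb1 stand at the top and Gas7 at the bottom.

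The genes that moved furthest had no or almost no counts in 1 of the groups. Ush1g, which encodes a scaffold protein of sensory hair cell bundles, had no count in any control library and 8.79, 9.68 and 4.42 CPM in the TGF-β libraries; against a floor of 3 counts per library, it was at least 74.8-fold higher. Gas7, an actin-binding protein of the F-BAR family, ran the other way, from 20.7, 19.6 and 19.5 CPM to no count in any TGF-β library, at least 203-fold lower. The control libraries lay within about 1 CPM of each other, and no treated library had a read. Spsb1, a SOCS-box ubiquitin ligase adaptor that targets the type II TGF-β receptor, went from 3 counts in the control libraries together to 1695, a ratio of 536 with a counting interval of 183 to 2602. Cxcl14, a chemokine, went from 1 count to 606 (ratio 575, 103 to 22749), and F11r, the junctional adhesion molecule JAM-A, from 1 to 212 (ratio 201, 35.7 to 7982). For these 3 genes control library 1 held all or most of the control counts: without it the fitted log2 differences were 9.81 for Spsb1, 10.64 for Cxcl14 and 9.07 for F11r, against 8.90, 8.70 and 7.13.

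Among the 12 largest rises with at least 50 counts on average in the higher group were also 2 enzymes. Kynu, kynureninase of the tryptophan pathway, measured 0.297, 1.05 and 0.780 CPM in control and 29.0, 33.5 and 26.5 CPM in TGF-β libraries (log2 difference 5.34 ± 0.28, adjusted p = 1.12e-07). Gcnt2, a glycosyltransferase that branches N-acetyllactosamine chains, rose from 0.296 ± 0.143 to 8.58 ± 0.751 CPM (SD, n = 3). Gpc1, a heparan sulfate proteoglycan, stood at 0.186, 0.0620 and 0.102 CPM and then at 4.63, 3.58 and 1.77 CPM, the widest spread of the 3 (log2 difference 4.82 ± 0.54, adjusted p = 1.66e-05). The naming rule required groups without overlap, so their separation is no result.

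Among the 12 largest falls were a protease, a complement regulator, a chemokine receptor and several interferon-induced or secreted proteins. Mmp12, macrophage elastase, dropped from 99.8, 88.0 and 93.4 CPM to 2.89, 3.27 and 3.71 CPM (log2 difference -4.83 ± 0.12, adjusted p = 1.84e-11). Syn1, a synaptic vesicle protein, fell from 29.7, 28.6 and 27.4 CPM to 1.37, 1.13 and 1.97 CPM. Tnip3, an A20-binding inhibitor of NF-κB, fell from 3.69 ± 0.671 to 0.281 ± 0.0762 CPM and Pilrb1, an activating immunoglobulin-like receptor, from 6.98 ± 0.588 to 0.471 ± 0.105 CPM. Ifitm6 fell from 18.5, 19.2 and 17.1 CPM to 1.40, 2.02 and 1.21 CPM. Pilrb1, Ifitm6, Klk1b11 and Serpinb1a have near-identical relatives, between which the counting could have split reads, so their values are uncertain.

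Some of these falls rested on single TGF-β libraries in their size. Klk1b11, a kallikrein-family protease, had 10.2, 10.5 and 9.19 CPM in control and 0, 0.389 and 0.225 CPM in TGF-β libraries (log2 difference -5.65 ± 0.49, adjusted p = 8.96e-06), and the difference was -5.04 without TGF-β library 1 and -6.36 without library 2. Serpinb1a, an inhibitor of neutrophil proteases, had 1.63, 1.83 and 2.24 and then 0, 0.466 and 0.0281 CPM (log2 difference -3.66 ± 0.82, adjusted p = 0.00650). Its difference was -3.04 without TGF-β library 1 and -6.67 without library 2, and the call was lost (-3.66, adjusted p = 0.0831) when all 12 cell libraries shared the fit. For Gbp7 and Rtp4, described with the interferon genes, TGF-β library 3 was the highest of its group.

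No difference was called for the ligand itself at the RNA level. Tgfb1 stood at 145, 151 and 139 CPM in control and at 139, 147 and 124 CPM in TGF-β libraries, and the ranges overlapped (log2 difference -0.09 ± 0.08, adjusted p = 0.439). Of the 9 tested members of the list of ligands and activators, 1 rose and 3 fell (11.1% and 33.3%, against 14.5% and 15.4% of all genes), with a median log2 difference of -0.09. The other 6 listed members (Ltbp1, Ltbp2, Itgb8, Thbs1, Bmp1 and Fstl1) had too few counts.

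Itgav, the αv integrin that helps release TGF-β from its latent complex, was the member that rose, from 45.3, 40.4 and 44.6 CPM to 271, 218 and 291 CPM (log2 difference 2.58 ± 0.11, adjusted p = 4.71e-09). Its partner Itgb5 pointed the same way, at 40.8, 39.4 and 36.9 and 289, 104 and 85.7 CPM, but TGF-β library 1 stood far above the others and the difference was not called (log2 difference 2.03 ± 0.57, adjusted p = 0.0644). Nrros, which tethers latent TGF-β on microglia, fell from 315, 313 and 311 CPM to 232, 244 and 218 CPM (log2 difference -0.44 ± 0.06, adjusted p = 1.76e-04). Gdf15, a distant stress-induced member of the TGF-β superfamily, fell from 125, 122 and 123 CPM to 20.6, 25.9 and 14.0 CPM (log2 difference -2.61 ± 0.21, adjusted p = 8.42e-05). Ltbp3, a latent TGF-β binding protein near the detection limit, had 0.631, 0.558 and 0.882 and then 0.0621, 0.233 and 0.225 CPM (log2 difference -1.98 ± 0.61, adjusted p = 0.0257); the call was lost without control library 1 (adjusted p = 0.0638), control library 3 (0.111) or TGF-β library 1 (0.0875). Not called were Ltbp4 (-0.64), Itgb1 (-0.06) and Furin, the protease that cleaves the TGF-β precursor (-0.06 on the log2 scale). Without TGF-β library 1, Itgb5 was called (1.29, adjusted p = 4.00e-07), making 2 rises in the list, as was Ltbp4, lower (adjusted p = 0.00714).

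Of 12 tested receptors and co-receptors, 4 rose and 1 fell (33.3% and 8.33%, against 14.5% and 15.4% of all genes). The median was 0.10. The type I receptor Tgfbr1 rose from 33.4, 34.4 and 38.7 CPM to 73.2, 67.2 and 90.8 CPM, while the type II receptor Tgfbr2 overlapped between groups at 93.5, 87.6 and 97.4 and 101, 95.6 and 97.7 CPM. Their log2 differences were 1.12 ± 0.12 (SE, adjusted p = 7.77e-06) and 0.08 ± 0.07 (adjusted p = 0.450). Bambi, a decoy receptor without kinase activity, rose from 16.6, 19.3 and 19.0 CPM to 38.2, 38.4 and 36.0 CPM (log2 difference 1.04 ± 0.11, adjusted p = 7.50e-06).

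In the BMP branch 3 receptors were called. Bmpr1a, a type I BMP receptor, fell by 0.56 on the log2 scale (adjusted p = 0.00917; 0.0531 without control library 3). Bmpr2, its type II partner, rose by 0.62 (adjusted p = 0.0200), and the call was lost without control library 1 (0.0803), control library 2 (0.0812) or TGF-β library 3 (0.0747). Acvr1, which serves BMPs and activins, rose by 1.17 (adjusted p = 0.0261) from about 1 CPM, and its call was lost without control library 1 (0.0517), control library 3 (0.0970) or TGF-β library 2 (0.0648). Not called were Eng (0.83), Acvrl1 (-0.04), Acvr1b (0.10), Acvr2a (-0.12), Acvr2b (0.02) and Cd109 (0.10), all as log2 differences. In this list 2 members were called higher without control library 1 and none lower without control library 3.

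Among the 20 tested SMADs and regulators, 4 rose and 3 fell (20.0% and 15.0%, near the 14.5% and 15.4% of all genes). Another 13 were not called, and the median was -0.05. The members that rose with the largest differences were negative regulators of the pathway. Smad6, an inhibitory SMAD acting mainly on the BMP branch, rose from 1.97, 1.40 and 1.93 CPM to 14.3, 12.5 and 10.0 CPM (log2 difference 2.80 ± 0.22, adjusted p = 6.78e-07). The corepressor Ski rose from 9.84, 8.75 and 11.5 CPM to 39.4, 34.8 and 29.3 CPM (log2 difference 1.78 ± 0.15, adjusted p = 9.10e-07). Its relative Skil went from 3.75, 5.89 and 4.10 CPM to 79.1, 62.5 and 76.5 CPM, the largest difference of the list (log2 difference 3.98 ± 0.17, adjusted p = 1.00e-08). In all 3 the lowest TGF-β library was at least 2-fold above the highest control library.

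Smad7, the inhibitory SMAD of the TGF-β branch, was less uniform. Its control libraries had 3.27, 4.06 and 2.44 CPM and its TGF-β libraries 13.3, 4.20 and 5.52 CPM, so that the groups did not overlap but 1 library carried most of the difference (log2 difference 1.23 ± 0.44, adjusted p = 0.0744). It was called by DESeq2 (1.24, adjusted p = 0.00298), in the fit of all 12 cell libraries (1.24, 0.0118) and without TGF-β library 2 (1.51, 0.0170). Smad5, a SMAD of the BMP branch, rose from 11.6, 6.45 and 11.4 CPM to 16.3, 16.3 and 20.1 CPM (log2 difference 0.84 ± 0.21, adjusted p = 0.00899). Smad3, a direct signal carrier, fell slightly, from 14.6, 15.1 and 15.4 CPM to 12.7, 10.9 and 10.8 CPM (log2 difference -0.39 ± 0.14, adjusted p = 0.0464). That call was lost under limma-voom (adjusted p = 0.0627), without a filter on low counts (0.0562) and without any one of control library 1 (0.100), 2 (0.111) or 3 (0.133) or TGF-β library 2 (0.0845) or 3 (0.100). Nedd4l, a ubiquitin ligase for activated SMAD2 and SMAD3, fell from 83.1, 81.4 and 87.8 CPM to 46.0, 42.0 and 44.0 CPM, and Fkbp1a, which holds type I receptors inactive, from 612, 621 and 604 CPM to 384, 395 and 390 CPM.

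The remaining members were not called: Smad1 (-0.29), Smad2 (-0.10), Smad4 (-0.21), Smurf1 (-0.57), Smurf2 (0.87), Tgif1 (-0.23), Zfyve9 (0.16), Trim33 (-0.05), Ppm1a (-0.22), Usp15 (0.24), Stub1 (-0.05) and Wwp1 (0.03), as log2 differences. Smad4 varied most among them, at 15.0, 4.98 and 4.22 CPM in the TGF-β libraries against 8.72, 10.9 and 8.48 CPM in control. Several of these calls turned on 1 library: without TGF-β library 1, Smad4 (-1.02, adjusted p = 0.00211) and Smurf1 (-1.03, 3.09e-05) were called lower, and 5 members of the list in all. Without TGF-β library 2, Smurf2 (1.14, 0.00236) and Usp15 (0.32, 0.00817) were called higher, Smad1 (-0.35, 0.0352) and Tgif1 (-0.27, 0.0404) lower, and 7 members in all higher. Without control library 2, Smurf2 (1.10, 0.0441) and Tgif1 (-0.30, 0.0411) were called.

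The Smad6 promoter is shown because it holds a palindromic SMAD-binding sequence, GTCTAGAC, which spans the start of the gene. The window runs from 250 bases before to 50 after the RefSeq start on the gene's strand (GRCm38.p6, chr9:64022010-64022309, minus strand), and the capitals mark the match, which begins 4 bases before the start.

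Smad6: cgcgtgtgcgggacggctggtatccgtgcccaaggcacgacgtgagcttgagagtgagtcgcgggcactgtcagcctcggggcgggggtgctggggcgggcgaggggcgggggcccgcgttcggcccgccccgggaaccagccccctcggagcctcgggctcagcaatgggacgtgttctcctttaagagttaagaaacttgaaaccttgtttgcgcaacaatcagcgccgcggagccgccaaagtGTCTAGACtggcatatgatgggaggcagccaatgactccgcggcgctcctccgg

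Of 27025 mouse promoters of this length in RefSeq, 57 (0.211%) held GTCTAGAC on either strand. Among genes called higher, 6 of 1368 with a promoter in the table held it (0.439%), and among those called lower 2 of 1421 (0.141%). The shorter SMAD half-site CAGAC is common, in 49.7% of all promoters, 47.0% of those of genes called higher and 46.1% of those called lower. GGCGCC, a site of SMAD1 and SMAD5, was in 12.0% of all promoters and in 20.8% and 19.6% of these 2 sets, beside 21.6% of all genes tested that had a promoter.

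Of 23 tested SMAD targets known from other cells, 11 rose and 6 fell (47.8% and 26.1%, against 14.5% and 15.4% of all genes). The median was 0.24. The inhibitors of differentiation all rose. Id3 rose from 1.63, 1.86 and 1.49 CPM to 28.9, 28.4 and 25.1 CPM, Id2 from 187, 183 and 181 CPM to 297, 295 and 270 CPM, and Id1 from 1.45, 1.92 and 0.712 CPM to 2.58, 2.80 and 4.78 CPM. Id1 was the least secure (log2 difference 1.31 ± 0.38, adjusted p = 0.0189): its call was lost without control library 1 (adjusted p = 0.0580), control library 3 (0.0764) or TGF-β library 3 (0.0855). Snai1, a transcriptional repressor, rose from 0.223, 0.589 and 0.577 CPM to 3.11, 4.51 and 2.36 CPM (log2 difference 2.81 ± 0.42, adjusted p = 1.94e-04). Tgm2, a transglutaminase, rose by 1.80 on the log2 scale.

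The target list did not move as a block. Myc fell from 17.0, 13.5 and 15.8 CPM to 4.41, 4.12 and 3.63 CPM (log2 difference -1.93 ± 0.17, adjusted p = 1.73e-06), the cell cycle inhibitor Cdkn1a from 245, 266 and 250 CPM to 139, 151 and 128 CPM, and the growth factor Vegfa from 81.5, 78.7 and 78.9 CPM to 43.4, 43.7 and 35.4 CPM. Plaur, the urokinase receptor, fell from 109, 109 and 110 CPM to 61.5, 55.0 and 58.5 CPM. Myc, Vegfa and Plaur are also members of other lists described below.

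**Figure D2:**
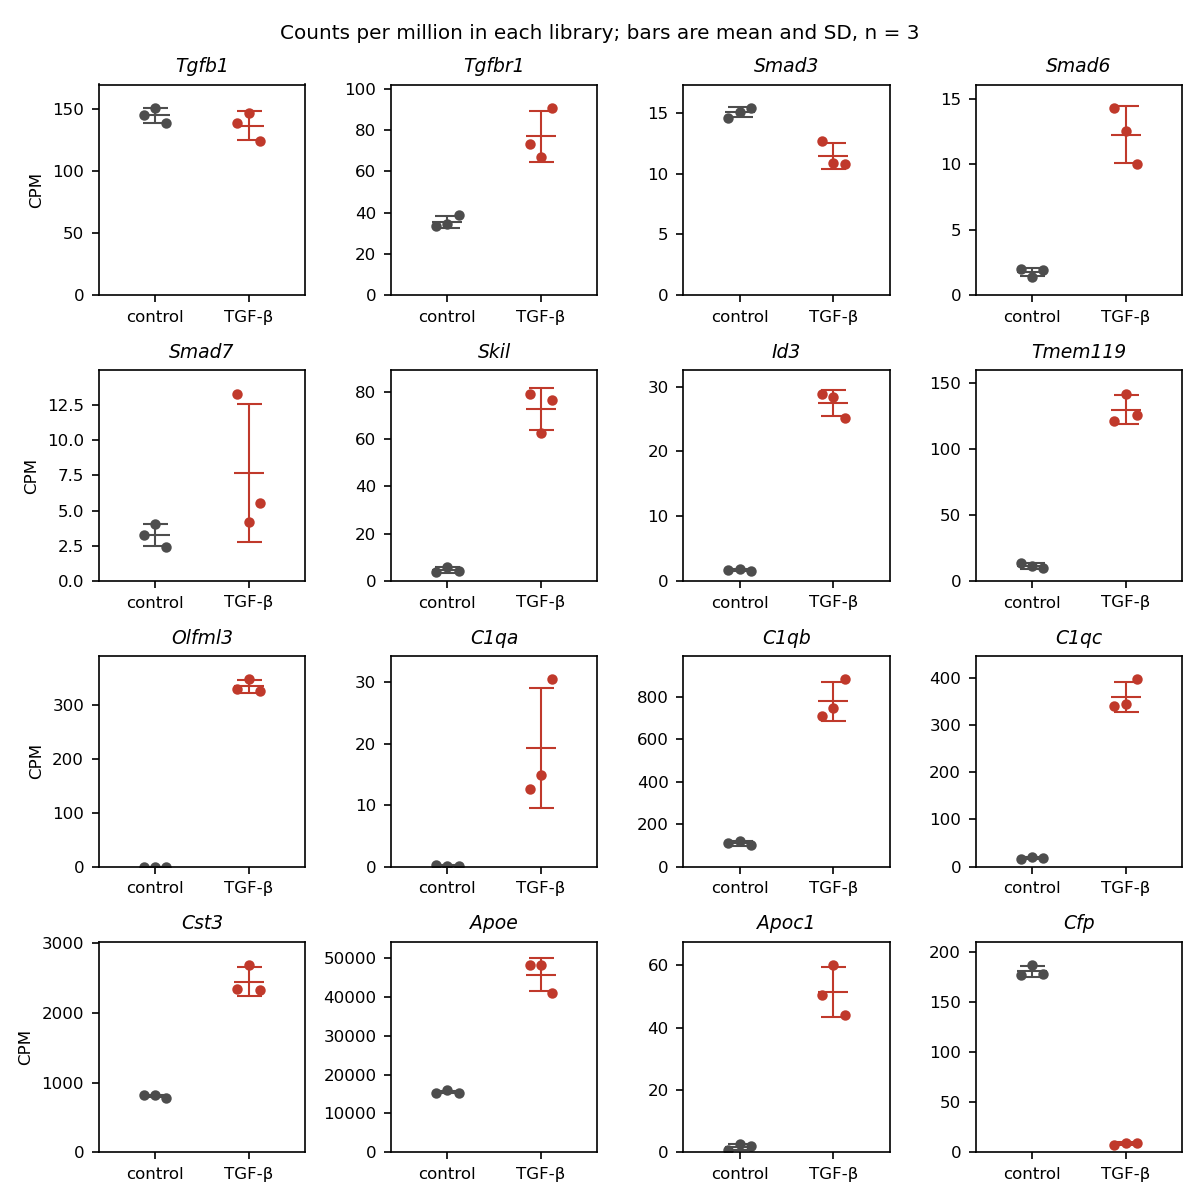
CPM (linear vertical axis from 0, 1 panel per gene) of 16 genes of TGF-β signalling, homeostasis, complement and lipid transport in the control and TGF-β libraries, 1 point per library, with bars for the mean and SD (n = 3). Tgfb1 overlaps between groups, Smad7 has 1 high TGF-β library, and Skil, Id3, Tmem119, Olfml3 and the 3 C1q genes are separated by wide gaps.

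Of the 29 gene lists described, the homeostatic microglial list had the largest share of members called in 1 direction. Of 38 tested members 31 rose (81.6%, against 14.5% of all genes), 20 of them more than 2-fold, 2 fell and 5 were not called, with a median log2 difference of 1.13. The list named 48 genes, of which 40 were among the 13290 listed genes, so the share covers the members detected in these cells. The list was chosen with earlier results of these libraries known, so its count is no independent evidence of its direction. Its members ranged from genes almost without counts in control cells to genes already abundant there.

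The first kind were nearly silent without TGF-β. Olfml3, a secreted olfactomedin-like protein typical of microglia, had 7, 4 and 2 counts in the control libraries and 10667, 8959 and 11567 in the TGF-β libraries, that is 0.260, 0.124 and 0.0678 CPM against 331, 348 and 326 CPM. Its TGF-β libraries lay close together and far from any control library. Cx3cr1, the fractalkine receptor, had 0.0742, 0 and 0.170 CPM and then 5.97, 3.65 and 14.5 CPM, and Gpr84, a receptor for medium-chain fatty acids, 0.520, 0.155 and 0.577 and 2.11, 2.68 and 3.55 CPM. Cx3cr1 was uneven: its log2 difference of 6.60 was 5.99 without control library 2, 7.74 without control library 3 and 5.85 without TGF-β library 3.

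The second kind was low but present. Tmem119, a transmembrane protein used to tell microglia from other macrophages, rose from 13.6, 11.2 and 9.50 CPM to 121, 142 and 126 CPM (log2 difference 3.51 ± 0.13, adjusted p = 1.57e-09). Adgrg1, an adhesion G protein-coupled receptor, rose from 8.28, 5.74 and 8.92 CPM to 33.4, 40.7 and 42.7 CPM, and the nucleotide receptors P2ry13 and P2ry6 from 1.30, 1.05 and 2.24 to 10.5, 6.96 and 10.7 CPM and from 7.54, 10.1 and 6.10 to 30.8, 27.4 and 42.2 CPM. Abcc3, a transporter of organic anions, rose from 31.6, 23.2 and 27.3 CPM to 131, 135 and 147 CPM. Ltc4s, leukotriene C4 synthase, rose from 0.631, 0.558 and 0.373 CPM to 2.42, 2.57 and 1.44 CPM (log2 difference 2.03 ± 0.42, adjusted p = 0.00235).

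The third kind was abundant in control cells and rose by smaller factors. Cst3, the protease inhibitor cystatin C, rose from 825, 820 and 787 CPM to 2343, 2689 and 2329 CPM, and Ctss, the lysosomal protease cathepsin S, from 1775, 1811 and 1853 CPM to 3684, 3547 and 3459 CPM. Csf1r, the receptor whose signal keeps microglia alive, rose from 815, 866 and 823 CPM to 1304, 1282 and 1348 CPM (log2 difference 0.65 ± 0.06, adjusted p = 3.72e-06). The lipid-sensing receptor Trem2 rose from 327 ± 6.68 to 518 ± 49.3 CPM, and its signalling adaptor Tyrobp from 1316 ± 70.7 to 1565 ± 144 CPM. The Tyrobp call (adjusted p = 0.0252) was lost without control library 2 (0.0838), control library 3 (0.129) or TGF-β library 2 (0.0843).

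Further members that rose were Mertk, a receptor for apoptotic cells (0.89), Lpcat2 (1.22) and Abhd12 (0.76), enzymes of phospholipid metabolism, Rgs10 (1.14), which shortens G protein signals, Selplg (0.74), a selectin ligand, Golm1 (0.93), a Golgi protein that shares 29.3% of its exon bases with Naa35, so that some reads cannot be assigned to 1 gene, Cmtm6 (0.54) and Vsir (0.47), all as log2 differences. The transcription factors Mef2a and Mef2c rose too, Mef2a from 26.0, 29.9 and 32.8 CPM to 83.2, 70.1 and 81.4 CPM, and Mef2c from 34.2, 41.4 and 36.4 CPM to 82.3, 57.5 and 117 CPM. The Mef2c call (adjusted p = 0.0257) was lost without control library 1 (0.101), 2 (0.0696) or 3 (0.0933).

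The 2 members that fell were Ckb, creatine kinase B, from 118, 113 and 116 CPM to 34.4, 33.5 and 40.1 CPM (log2 difference -1.68 ± 0.09, adjusted p = 1.59e-08), and Rhob, an endosomal GTPase, from 45.6, 41.9 and 40.8 CPM to 22.2, 23.7 and 24.3 CPM (log2 difference -0.87 ± 0.10, adjusted p = 1.93e-05). Not called were Gas6, a ligand of MERTK (-0.16), Entpd1, the ATP-degrading ectoenzyme CD39 (0.18), Bin1 (0.00), Arhgap5 (0.16) and Gpr34 (0.03), a lysophosphatidylserine receptor at 3.30, 3.60 and 3.59 and 3.70, 2.25 and 4.67 CPM. Without TGF-β library 3, Gas6 was called lower (-0.18, adjusted p = 0.0296) and Entpd1 higher (0.23, 0.0199). Pros1 had too few counts for the test.

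Promoters of 3 homeostatic genes are shown, searched for GAGGAAGT, a sequence bound by PU.1, the factor that defines macrophages. The C1qc window (chr4:136892865-136893164, minus strand) holds 1 match, the Ctss window (chr3:95526536-95526835, plus strand) holds 1 that begins 2 bases before the start, on the other strand, and the Olfml3 window (chr3:103737952-103738251, minus strand) holds none; capitals mark the matches.

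C1qc: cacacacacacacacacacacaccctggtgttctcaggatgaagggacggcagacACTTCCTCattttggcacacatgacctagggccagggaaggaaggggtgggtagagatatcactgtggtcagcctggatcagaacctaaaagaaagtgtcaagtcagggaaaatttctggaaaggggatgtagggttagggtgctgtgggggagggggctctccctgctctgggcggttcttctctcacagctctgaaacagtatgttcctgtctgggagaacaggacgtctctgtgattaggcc

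Ctss: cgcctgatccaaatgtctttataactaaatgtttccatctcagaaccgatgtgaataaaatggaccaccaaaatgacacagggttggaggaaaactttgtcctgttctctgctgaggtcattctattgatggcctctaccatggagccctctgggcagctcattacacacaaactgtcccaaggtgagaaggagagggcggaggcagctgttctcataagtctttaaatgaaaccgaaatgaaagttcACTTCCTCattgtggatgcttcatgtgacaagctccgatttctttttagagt

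Olfml3: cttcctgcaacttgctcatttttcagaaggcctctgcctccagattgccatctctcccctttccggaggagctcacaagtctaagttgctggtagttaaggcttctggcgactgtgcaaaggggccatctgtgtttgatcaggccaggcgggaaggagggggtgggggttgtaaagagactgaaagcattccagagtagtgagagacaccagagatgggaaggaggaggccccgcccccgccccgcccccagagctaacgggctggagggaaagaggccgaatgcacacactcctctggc

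The sequence was in 2 of 26 promoters of the homeostatic list (7.69%), in 3.28% of all mouse promoters and in 4.31% of those of genes called higher. Only 26 of the 40 listed members had a promoter in the table.

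Complement genes moved in both directions: 6 of 17 tested rose and 5 fell (35.3% and 29.4%, against 14.5% and 15.4% of all genes). Another 6 were not called, and the median was 0.19. The 3 subunits of C1q, the molecule that starts the classical pathway and tags synapses and debris, all rose. C1qa had 0.260, 0.0620 and 0.170 CPM in control and 12.6, 14.9 and 30.5 CPM in TGF-β libraries, C1qb 110, 121 and 99.8 and 709, 745 and 882 CPM, and C1qc 16.1, 21.0 and 19.0 and 340, 344 and 397 CPM. The log2 differences were 6.90 ± 0.57, 2.82 ± 0.10 and 4.27 ± 0.11 (SE), with adjusted p = 7.31e-05, 1.59e-09 and 4.95e-11.

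The C1q molecule holds its subunits in equal numbers, whereas their RNA levels differed. Per exon length, the level of C1qa relative to C1qb was 0.00247, 5.37e-04 and 0.00178 in control libraries and 0.0186, 0.0209 and 0.0362 in TGF-β libraries. The same ratio for C1qc was 0.0824, 0.0980 and 0.107 in control and 0.270, 0.261 and 0.253 in TGF-β libraries. Both ratios were higher in every TGF-β library, and C1qa remained the scarcest subunit in all 6. The 3 genes lie side by side on chromosome 4, in the order C1qb, C1qc, C1qa, with no protein-coding gene between them.

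The other arms differed. Cfp, properdin, which stabilizes the alternative pathway convertase, fell from 177, 187 and 178 CPM to 7.36, 9.64 and 9.29 CPM (log2 difference -4.37 ± 0.11, adjusted p = 1.84e-11). C4b, a component of the classical pathway with a near-identical copy in the genome, fell from 149, 138 and 145 CPM to 50.1, 47.9 and 34.7 CPM (log2 difference -1.70 ± 0.12, adjusted p = 1.51e-06). C3, the central component, was not called at 140, 133 and 145 and 142, 151 and 77.8 CPM, where TGF-β library 3 was the low one (log2 difference -0.18 ± 0.27, adjusted p = 0.683).

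Of the 2 receptors for C5a, 1 was called. C5ar2, which signals little through G proteins, rose from 0.408, 0.651 and 0.746 CPM to 9.41, 10.9 and 10.3 CPM (log2 difference 4.06 ± 0.25, adjusted p = 7.43e-08). C5ar1, the classical receptor, stood at 8.87, 7.41 and 8.72 and 5.00, 5.79 and 6.73 CPM and missed the threshold (log2 difference -0.51 ± 0.18, adjusted p = 0.0527). C3ar1, the C3a receptor, rose from 223, 190 and 206 CPM to 269, 257 and 322 CPM. Itgb2, the β2 chain of the complement receptors CR3 and CR4, fell from 609, 602 and 636 CPM to 389, 391 and 349 CPM, while its partners Itgam (0.19) and Itgax (0.19) were not called. Clu, a chaperone that inhibits terminal complement, rose by 0.31 and C1qbp, a mitochondrial C1q-binding protein, fell by 0.28 on the log2 scale. C1ra (0.35) and Cr1l (-0.04) were not called. Without TGF-β library 3, C5ar1 (-0.63, adjusted p = 0.0284), C1ra (0.40, 0.0429) and Itgax (0.29, 0.00243) were called, and without TGF-β library 2 Itgam was (0.24, 0.0446).

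Lipid transport genes rose more often than they fell. The 17 tested were apolipoproteins and targets of LXR, the nuclear receptor for oxysterols. Of them 10 rose and 1 fell (58.8% and 5.88%, against 14.5% and 15.4% of all genes), with a median of 0.60. Another 6 were not called. Apoe, the main lipid carrier of the brain, had 15350, 15964 and 15358 CPM in control and 48051, 48117 and 40929 CPM in TGF-β libraries (log2 difference 1.55 ± 0.08, adjusted p = 1.70e-08). Apoc1 had 0.780, 2.76 and 2.03 and then 50.4, 60.1 and 44.0 CPM (log2 difference 4.76 ± 0.39, adjusted p = 3.01e-04), and Apoc4 1.48, 1.24 and 0.848 and then 42.6, 54.6 and 31.5 CPM (log2 difference 5.17 ± 0.26, adjusted p = 2.25e-07). Apoc4, Apoc1 and Apoe follow each other on chromosome 7 with no protein-coding gene between them.

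Enzymes and regulators of the list followed. Srebf1, the transcription factor that drives fatty acid synthesis, rose from 134, 152 and 134 CPM to 412, 418 and 422 CPM (log2 difference 1.58 ± 0.07, adjusted p = 3.22e-09), and Scd2, a stearoyl-CoA desaturase, from 1612, 1806 and 1692 CPM to 4401, 3963 and 4598 CPM (log2 difference 1.34 ± 0.08, adjusted p = 3.31e-08). Mylip, the ubiquitin ligase that degrades the LDL receptor, went from 47.0, 50.1 and 53.9 CPM to 99.3, 98.0 and 98.7 CPM. The best-known LXR target, the cholesterol exporter Abca1, was not called at 390, 334 and 411 and 423, 337 and 479 CPM, nor was lipoprotein lipase, Lpl, at 386, 323 and 351 and 222, 189 and 347 CPM. Abcg1, its partner in export, rose by 0.31 on the log2 scale, and the receptor Nr1h2 itself fell by 0.34. Without TGF-β library 3, Lpl was called lower (-0.78, adjusted p = 1.78e-05), making 2 falls in the list.

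In cholesterol and fatty acid synthesis, 14 of 29 tested genes rose and 2 fell (48.3% and 6.90%, against 14.5% and 15.4% of all genes). Another 13 were not called, and the median was 0.35. Insig1, a sterol-regulated brake on the pathway, rose from 23.2, 26.5 and 22.9 CPM to 55.8, 62.0 and 66.5 CPM, and Stard4, a cholesterol transfer protein, from 7.31, 6.26 and 5.05 CPM to 13.8, 11.9 and 22.2 CPM. Cyp51 and Hmgcs1, enzymes of the pathway, rose by 0.79 and 0.73 on the log2 scale. Sqle, squalene epoxidase, fell from 205, 213 and 206 CPM to 150, 135 and 161 CPM (log2 difference -0.49 ± 0.07, adjusted p = 2.46e-04). Without control library 3, 9 genes of this list were called higher and 1 lower, and without TGF-β library 3, 4 were called lower.

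Targets of NRF2, the transcription factor of the oxidant response, fell. Of 32 tested, 23 fell (71.9%, against 15.4% of all genes), 11 of them more than 2-fold, none rose and 9 were not called, with a median of -0.68. Earlier results of these libraries had already shown this fall.

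Detoxifying and antioxidant enzymes and their suppliers were among the members that fell. Gstm1, a glutathione transferase with close paralogs, fell from 3547, 3392 and 3550 CPM to 888, 908 and 671 CPM (log2 difference -2.09 ± 0.11, adjusted p = 5.22e-08). Srxn1, sulfiredoxin, fell from 510, 488 and 534 CPM to 176, 178 and 192 CPM, and Prdx1, the peroxiredoxin it repairs, from 3074, 2994 and 2961 CPM to 1382, 1453 and 1593 CPM. G6pdx, which supplies NADPH, fell from 601, 624 and 613 CPM to 280, 284 and 325 CPM. Nqo1, a quinone reductase, fell from 5.35, 4.53 and 3.46 CPM to 1.15, 1.48 and 0.422 CPM. Slc7a11, the cystine importer, fell from 31.1, 27.9 and 45.6 CPM to 7.18, 7.77 and 8.84 CPM (log2 difference -2.13 ± 0.18, adjusted p = 3.17e-06).

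Heme and iron genes of the same list fell with them. Hmox1, heme oxygenase, fell from 723, 776 and 734 CPM to 523, 499 and 536 CPM (log2 difference -0.52 ± 0.06, adjusted p = 3.60e-05), and Slc48a1, a heme transporter, from 671, 717 and 719 CPM to 259, 265 and 268 CPM. Fth1, the ferritin heavy chain, which has many processed pseudogenes, fell from 26557, 24442 and 26167 CPM to 13306, 13502 and 11520 CPM (log2 difference -1.01 ± 0.08, adjusted p = 7.65e-07), whereas the light chain Ftl1, at 9902, 10428 and 9829 and 8824, 9412 and 7989 CPM, was not called (log2 difference -0.20 ± 0.08, adjusted p = 0.0615). In the wider iron and heme list, 9 of 18 tested fell and 1 rose (50.0% and 5.56%, against 15.4% and 14.5% of all genes). The median was -0.29. Slc11a1, the phagosomal metal transporter NRAMP1, fell from 640, 668 and 664 CPM to 367, 374 and 342 CPM, while the iron exporter Slc40a1 (0.20) and the transferrin receptor Tfrc (-0.18) were not called. Without TGF-β library 2, Ftl1 (-0.26, adjusted p = 0.0179) and Slc40a1 (0.29, 0.0132) were called, making 2 rises in this list, and without TGF-β library 3 Tfrc was (-0.45, 7.24e-04).

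The Srxn1 (chr2:152105274-152105573, plus strand) and Prdx1 (chr4:116685349-116685648, plus strand) promoters are shown with the antioxidant response element TGACNNNGC and the AP-1 sequence TGAGTCA in capitals, searched on both strands. The 2 motifs can overlap, since a TGAGTCA read on the other strand begins with TGAC.

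Srxn1: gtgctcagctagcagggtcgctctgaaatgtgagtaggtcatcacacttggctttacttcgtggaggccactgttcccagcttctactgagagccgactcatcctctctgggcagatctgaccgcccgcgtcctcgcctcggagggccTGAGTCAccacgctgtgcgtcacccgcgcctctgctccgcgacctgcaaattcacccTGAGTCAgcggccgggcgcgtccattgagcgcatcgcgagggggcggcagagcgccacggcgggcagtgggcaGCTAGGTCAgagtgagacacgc

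Prdx1: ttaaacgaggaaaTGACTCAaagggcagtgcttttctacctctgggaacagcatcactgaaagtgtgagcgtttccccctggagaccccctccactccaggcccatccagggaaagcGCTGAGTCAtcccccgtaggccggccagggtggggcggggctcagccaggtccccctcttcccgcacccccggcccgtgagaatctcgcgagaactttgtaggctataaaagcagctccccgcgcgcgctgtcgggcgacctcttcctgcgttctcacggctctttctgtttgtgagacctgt

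Each window holds 2 matches to TGAGTCA and 1 to TGACNNNGC, and in Prdx1 1 match of each kind overlaps. Of 27 NRF2 list members with a promoter, 9 (33.3%) held TGACNNNGC and 6 (22.2%) held TGAGTCA, against 12.5% and 5.17% of all promoters. Among genes tested that had a promoter, the shares were 15.0% and 3.56%. Among the 19 list members that fell and had a promoter, they were 31.6% and 15.8%. The list is of NRF2 targets, so a high share of the antioxidant element is a property of the list.

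Interferon-induced genes fell as well. Of 55 tested members of the type I interferon list, 34 fell and 4 rose (61.8% and 7.27%, against 15.4% and 14.5% of all genes). Of those that fell, 22 did so by more than 2-fold. Not called were 17, and the median was -0.78. Another 13 listed members had too few counts, so the description covers the members detected in these cells.

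The regulator Irf7, which amplifies the interferon response, fell from 74.1, 82.2 and 70.1 CPM to 8.92, 10.3 and 16.0 CPM (log2 difference -2.68 ± 0.21, adjusted p = 2.25e-05). The 2′-5′ oligoadenylate synthetase Oas3, which senses double-stranded RNA, fell from 191, 202 and 191 CPM to 77.0, 83.9 and 82.2 CPM (log2 difference -1.27 ± 0.07, adjusted p = 2.52e-08), its close relatives Oas1a from 91.5, 99.9 and 89.9 CPM to 35.9, 43.7 and 45.8 CPM and Oasl1 from 35.9, 41.0 and 30.8 CPM to 7.46, 8.47 and 8.70 CPM. Oas1a and Oas1g are near-identical and are uncertain singly. Slfn2 fell from 98.9, 106 and 91.6 CPM to 32.4, 28.9 and 34.3 CPM, and Ifi207, of the DNA-sensing family, from 93.6, 92.8 and 99.3 CPM to 38.5, 37.0 and 47.3 CPM.

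The steepest falls were in genes of few CPM. Gbp7, an interferon-induced GTPase with near relatives, had 3.45, 4.96 and 3.26 CPM in control and 0.0311, 0.0389 and 0.197 CPM in TGF-β libraries (log2 difference -5.30 ± 0.52, adjusted p = 4.51e-06), and -6.65 without TGF-β library 3. Rtp4, a chaperone of receptors, had 5.16, 7.01 and 5.83 and 0.0311, 0.311 and 0.901 CPM (log2 difference -3.80 ± 0.65, adjusted p = 0.00327), and -5.21 without that library. Ifit3, which binds foreign RNA and has a near-identical copy, had 2.08, 1.89 and 2.03 and 0.404, 0.155 and 0.141 CPM (log2 difference -3.07 ± 0.48, adjusted p = 3.07e-04), and -3.72 without TGF-β library 1. Slfn5 fell from 1.30, 1.95 and 2.14 CPM to 0.280, 0.155 and 0.141 CPM (log2 difference -3.20 ± 0.49, adjusted p = 2.38e-04).

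Not all of the list fell. Irf1 rose from 17.7, 17.0 and 19.1 CPM to 24.9, 29.9 and 22.7 CPM (log2 difference 0.53 ± 0.13, adjusted p = 0.00702), and Parp9 from 31.4, 32.7 and 32.4 CPM to 45.6, 40.5 and 48.3 CPM (log2 difference 0.48 ± 0.10, adjusted p = 0.00242), together with its binding partner Dtx3l (0.48) and with Slfn9 (0.61). Parp9 and Dtx3l share 9.40% and 8.00% of their exon bases with each other, so some reads cannot be assigned to 1 gene. The Dtx3l call was lost without control library 1 (adjusted p = 0.0560), and that of Slfn9 without control library 1 (0.0796), control library 3 (0.0730) or TGF-β library 3 (0.0687), so that 2 members were called higher without control library 1. Irf9, a DNA-binding factor of the type I interferon signal, fell by 0.68 on the log2 scale.

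Promoters of 3 members that fell are shown with GAAANNGAA, the core of the interferon-stimulated response element, in capitals: Ifit3 (chr19:34583279-34583578, plus strand), Slfn5 (chr11:82951852-82952151, plus strand) and Oas3 (chr5:120777610-120777909, minus strand).

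Ifit3: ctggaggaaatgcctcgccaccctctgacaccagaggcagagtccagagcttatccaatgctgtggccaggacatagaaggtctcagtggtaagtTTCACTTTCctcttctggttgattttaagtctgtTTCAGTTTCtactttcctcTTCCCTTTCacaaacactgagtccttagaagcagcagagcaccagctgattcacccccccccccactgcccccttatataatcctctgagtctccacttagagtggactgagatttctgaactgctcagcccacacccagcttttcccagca

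Slfn5: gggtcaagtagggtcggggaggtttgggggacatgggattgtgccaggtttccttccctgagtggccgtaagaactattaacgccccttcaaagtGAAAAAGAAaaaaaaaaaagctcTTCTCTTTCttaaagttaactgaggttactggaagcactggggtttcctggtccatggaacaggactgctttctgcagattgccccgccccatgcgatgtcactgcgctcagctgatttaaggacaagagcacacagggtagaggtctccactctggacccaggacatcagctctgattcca

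Oas3: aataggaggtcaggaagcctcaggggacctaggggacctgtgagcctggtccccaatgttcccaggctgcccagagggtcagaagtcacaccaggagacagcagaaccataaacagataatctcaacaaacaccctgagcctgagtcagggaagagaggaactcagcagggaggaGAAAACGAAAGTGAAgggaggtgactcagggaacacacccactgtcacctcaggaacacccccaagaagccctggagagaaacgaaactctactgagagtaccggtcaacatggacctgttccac

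Ifit3 holds 3 matches, Slfn5 holds 2 and Oas3 holds 2 that overlap. The element was in 32 of 53 promoters of the list (60.4%) and in 14 of 27 of its members that fell (51.9%), against 8.57% of all mouse promoters, 7.46% of those of all genes called lower and 6.94% of those called higher. Among genes tested that had a promoter, the share was 7.09%. The list is of interferon-induced genes, so a high share of this element is a property of the list.

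**Figure D3:**
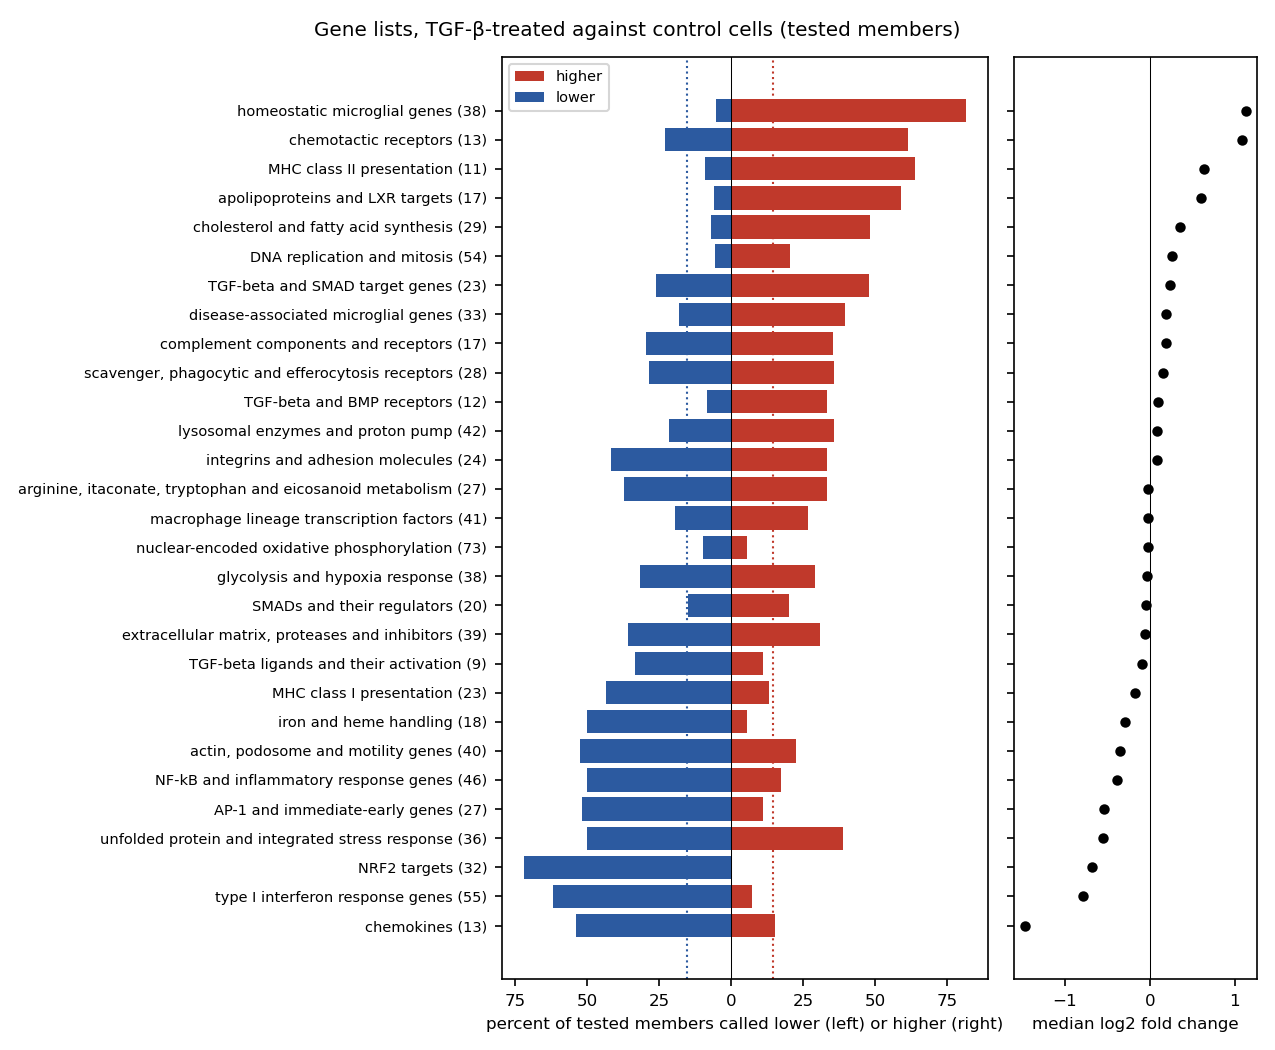
For each gene list, the percentage of tested members called lower and higher after TGF-β (bars to the left and right) with the number tested in brackets and the median log2 difference in the panel at the right; dotted lines mark the percentages over all genes tested, 15.4 lower and 14.5 higher. The homeostatic list has its bar to the right (81.6%), the NRF2 (71.9%) and interferon (61.8%) lists to the left, and several lists have long bars on both sides.

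Inflammatory genes fell more often than they rose. Of 46 tested members of the NF-κB list, 23 fell and 8 rose (50.0% and 17.4%, against 15.4% and 14.5% of all genes). Another 15 were not called, and the median was -0.38. Il1rn, the secreted antagonist of the interleukin-1 receptor, fell from 63.6, 43.3 and 59.6 CPM to 6.49, 6.30 and 7.96 CPM (log2 difference -3.00 ± 0.16, adjusted p = 4.33e-08), and Il1b itself fell from 10.7, 9.80 and 9.77 CPM to 5.75, 4.70 and 5.54 CPM (log2 difference -0.92 ± 0.17, adjusted p = 0.00111). Tnf overlapped between groups at 4.57, 4.50 and 6.55 and 3.82, 3.42 and 4.98 CPM (log2 difference -0.35 ± 0.24, adjusted p = 0.297). Ptgs2, cyclooxygenase 2, fell from 14.3, 24.5 and 18.8 CPM to 3.48, 1.90 and 3.46 CPM (log2 difference -2.69 ± 0.26, adjusted p = 1.29e-05). Clec4e, a receptor for mycobacterial glycolipid, fell from 12.7, 13.6 and 12.6 CPM to 1.21, 2.41 and 1.91 CPM, and Tnfaip2 from 2849, 2800 and 2887 CPM to 1450, 1521 and 1192 CPM.

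Receptors for bacterial products moved in both directions. Cd14, the LPS co-receptor, fell from 231, 199 and 227 CPM to 80.5, 86.6 and 83.9 CPM (log2 difference -1.39 ± 0.08, adjusted p = 2.53e-08). Tlr2, the receptor for bacterial lipopeptides, rose from 49.7, 47.8 and 54.2 CPM to 183, 185 and 180 CPM (log2 difference 1.86 ± 0.07, adjusted p = 1.59e-09). Within the NF-κB family Nfkb1 (0.67), Rel (1.16) and the inhibitor Nfkbia (0.57) rose, while Rela (-0.50) fell, all as log2 differences past the threshold.

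Of 13 tested chemokines 7 fell and 2 rose (53.8% and 15.4%, against 15.4% and 14.5% of all genes), with a median of -1.47. Ccl9 fell from 30.7, 30.0 and 24.9 CPM to 2.52, 1.63 and 3.77 CPM (log2 difference -3.41 ± 0.24, adjusted p = 1.76e-06), Ccl4 from 50.4, 35.4 and 43.5 CPM to 7.15, 9.84 and 6.05 CPM, Ccl3 from 98.9, 68.7 and 90.5 CPM to 22.8, 26.7 and 19.6 CPM and Ccl5 from 5.53, 2.57 and 2.81 CPM to 0.652, 0.622 and 0.619 CPM. These 4, with Ccl6 (-1.47, not called), are neighbours on chromosome 11, in the order Ccl5, Ccl9, Ccl6, Ccl3, Ccl4, with no protein-coding gene between them. Ccl2, a chemoattractant of monocytes, fell from 5.75, 3.07 and 4.95 CPM to 1.18, 1.48 and 0.985 CPM. Cxcl16, a membrane-bound chemokine, was the other riser beside Cxcl14, at 0.371, 0.186 and 0.339 and 0.559, 1.87 and 1.21 CPM (log2 difference 2.01, adjusted p = 0.0154). Its call was lost under limma-voom (1.43, 0.0554) and without control library 2 (0.0715), control library 3 (0.0501) or TGF-β library 2 (1.57, 0.0722), each of which left 1 riser in the list.

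Of 13 tested chemotactic receptors, for chemokines and other attractants, 8 rose and 3 fell (61.5% and 23.1%, against 14.5% and 15.4% of all genes). The median was 1.08. Cxcr2, the receptor for neutrophil chemokines, rose from 18.3, 20.8 and 19.2 CPM to 91.0, 81.6 and 103 CPM (log2 difference 2.24 ± 0.11, adjusted p = 5.96e-09). Cxcr4, the CXCL12 receptor, rose from 16.7, 13.2 and 17.0 CPM to 51.0, 41.8 and 42.6 CPM, and Gpr183, an oxysterol receptor, from 24.1, 26.5 and 23.4 CPM to 51.5, 51.3 and 56.0 CPM. Ccr1, the receptor for CCL3, CCL5 and CCL9, fell from 14.3, 16.9 and 14.6 CPM to 1.43, 0.816 and 0.844 CPM (log2 difference -3.88 ± 0.23, adjusted p = 5.20e-08). The platelet-activating factor receptor Ptafr fell by 2.11 on the log2 scale.

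Antigen presentation genes were counted by class. For MHC class I, 10 of 23 tested genes fell and 3 rose (43.5% and 13.0%, against 15.4% and 14.5% of all genes). The median was -0.17. The class I molecules H2-D1 and H2-K1, which share sequence with other H2 genes, fell from 4664, 4648 and 4673 CPM to 3212, 3312 and 2692 CPM and from 1134, 1155 and 1143 CPM to 816, 811 and 670 CPM, and the nonclassical H2-T23 from 467, 453 and 441 CPM to 180, 191 and 162 CPM (log2 difference -1.35 ± 0.07, adjusted p = 1.92e-08). The 3 that rose were chaperones of folding and peptide loading, also counted among the stress response genes below: Pdia3 from 740, 745 and 746 CPM to 1299, 1180 and 1448 CPM, and Calr and Canx by 0.52 and 0.53 on the log2 scale.

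For MHC class II, 7 of 11 tested genes rose and 1 fell (63.6% and 9.09%, against 14.5% and 15.4% of all genes). The median was 0.64, and the gene that fell was the invariant chain. Cd74 dropped from 232, 256 and 241 CPM to 43.4, 48.6 and 36.8 CPM (log2 difference -2.50 ± 0.10, adjusted p = 1.80e-09). H2-DMa, which helps load peptide, rose from 4.16, 3.78 and 2.27 CPM to 7.74, 6.84 and 9.26 CPM (log2 difference 1.23 ± 0.24, adjusted p = 0.00176), and H2-DMb2 rose by 2.41 on the log2 scale. The master regulator Ciita had too few counts for the test. The members that rose were processing enzymes, peptide-loading chains and the costimulatory protein Cd83 (1.00). None of the 12 listed members is a classical class II α or β chain, so the list does not describe the presenting molecules.

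Phagocytic receptors changed without a common direction: 10 of 28 tested rose and 8 fell (35.7% and 28.6%, against 14.5% and 15.4% of all genes). Another 10 were not called, and the median was 0.16. Scarb2, a lysosomal receptor for β-glucocerebrosidase, rose from 92.8, 82.7 and 82.1 CPM to 228, 207 and 220 CPM (log2 difference 1.35 ± 0.08, adjusted p = 2.76e-08), and Stab1, a scavenger receptor, by 2.06 on the log2 scale. Cd36, a receptor for oxidized lipids, fell from 19.3, 16.8 and 16.0 CPM to 4.01, 3.11 and 4.28 CPM (log2 difference -2.18 ± 0.17, adjusted p = 6.93e-07), and Clec7a, the β-glucan receptor dectin-1, from 86.0, 63.5 and 76.0 CPM to 22.4, 16.4 and 17.8 CPM (log2 difference -1.99 ± 0.14, adjusted p = 6.08e-07). Axl, a receptor related to MERTK, had 0.483, 0 and 0 CPM in control and 1.58, 2.45 and 2.11 CPM in TGF-β libraries (log2 difference 3.72 ± 0.92, adjusted p = 0.0136). The Axl value rested on control library 1, without which it was 8.99; it was 3.10 without control library 2 and 4.98 under limma-voom, and DESeq2 did not call it (adjusted p = 0.136).

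Genes of the disease-associated state of microglia, seen around amyloid plaques, were likewise divided. Of 33 tested, 13 rose and 6 fell (39.4% and 18.2%, against 14.5% and 15.4% of all genes). Another 14 were not called, and the median was 0.19. Spp1, osteopontin, rose from 11129, 10727 and 10684 CPM to 25495, 25226 and 29679 CPM (log2 difference 1.30 ± 0.08, adjusted p = 6.30e-08). Hif1a, the hypoxia-inducible transcription factor, rose from 54.2, 63.5 and 68.2 CPM to 228, 211 and 194 CPM (log2 difference 1.77 ± 0.09, adjusted p = 1.92e-08). Lgals3, galectin-3, fell from 5277, 5008 and 5159 CPM to 1517, 1618 and 1380 CPM (log2 difference -1.77 ± 0.07, adjusted p = 2.14e-09). The tetraspanin Cd63, an EV and lysosome protein, was not called at 1813, 1693 and 1779 and 2075, 2293 and 1778 CPM (log2 difference 0.22 ± 0.09, adjusted p = 0.0726). Without TGF-β library 3 it was called (0.31, adjusted p = 6.64e-04), as it was under limma-voom (0.23, 0.00919) and in the fit of all 12 cell libraries (0.22, 0.0491).

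Proteases, coagulation factors and matrix genes gave 12 rises and 14 falls among 39 tested (30.8% and 35.9%, against 14.5% and 15.4% of all genes). The median was -0.06. Coagulation factors fell: F10 from 141, 167 and 152 CPM to 34.5, 38.4 and 25.2 CPM, F7 from 219, 236 and 219 CPM to 88.9, 96.0 and 70.8 CPM and F13a1, which cross-links fibrin, from 1206, 1353 and 1237 CPM to 445, 315 and 321 CPM. The metalloproteases diverged. Mmp14, the membrane-type collagenase, rose from 0.408, 0.434 and 0.305 CPM to 3.04, 4.04 and 3.86 CPM (log2 difference 3.24 ± 0.34, adjusted p = 9.50e-06) and the gelatinase it activates, Mmp2, by 2.30, while the other gelatinase, Mmp9, fell from 8.65, 7.60 and 7.87 CPM to 2.02, 1.55 and 2.39 CPM (log2 difference -2.00 ± 0.22, adjusted p = 1.48e-05). Adam8, a sheddase, fell from 81.0, 78.3 and 86.8 CPM to 26.5, 22.5 and 29.1 CPM, and Lamc1, a laminin chain, from 238, 199 and 236 CPM to 122, 108 and 96.4 CPM. Fn1 and Thbs1 had too few counts for the test.

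Among 24 tested integrins and adhesion molecules 8 rose and 10 fell (33.3% and 41.7%, against 14.5% and 15.4% of all genes). The median was 0.09. Itgal, the α chain of LFA-1, rose from 78.6, 67.4 and 73.6 CPM to 220, 220 and 201 CPM (log2 difference 1.55 ± 0.08, adjusted p = 1.11e-08), while its β chain Itgb2 fell, as given above. Mcam, an adhesion molecule of the immunoglobulin family, rose from 2.41, 2.23 and 1.83 CPM to 21.8, 20.5 and 17.4 CPM (log2 difference 3.20 ± 0.18, adjusted p = 2.76e-08). Alcam, a ligand of CD6, fell from 208, 181 and 210 CPM to 70.9, 63.6 and 78.6 CPM, and Ninj1, which ruptures the plasma membrane in lytic death, from 575, 629 and 600 CPM to 234, 248 and 203 CPM.

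Of 41 tested transcription factors of the macrophage lineage, 11 rose and 8 fell (26.8% and 19.5%, against 14.5% and 15.4% of all genes). Another 22 were not called, and the median was -0.02. Cebpa rose from 12.4, 10.5 and 10.9 CPM to 48.6, 48.7 and 33.5 CPM (log2 difference 1.96 ± 0.15, adjusted p = 8.30e-07). Klf2 fell from 15.9, 16.7 and 16.1 CPM to 4.35, 2.29 and 2.53 CPM (log2 difference -2.40 ± 0.22, adjusted p = 2.95e-06). Spi1, which encodes PU.1, fell slightly, from 385, 389 and 396 CPM to 292, 310 and 286 CPM. Irf8 (0.08) and Runx3 (-0.09) were not called.

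Of 27 tested immediate-early genes, 14 fell and 3 rose (51.9% and 11.1%, against 15.4% and 14.5% of all genes). The median was -0.54. Dusp1, a phosphatase that switches off p38 and JNK, fell from 78.2, 74.2 and 81.5 CPM to 12.5, 11.4 and 10.8 CPM (log2 difference -2.75 ± 0.10, adjusted p = 6.76e-10), and Dusp5, which acts on nuclear ERK, from 24.5, 21.6 and 21.0 CPM to 6.34, 3.62 and 3.71 CPM. Dusp6, which acts on cytoplasmic ERK, rose from 5.20, 5.95 and 3.76 CPM to 21.5, 20.7 and 22.9 CPM (log2 difference 2.12 ± 0.17, adjusted p = 8.70e-07). Jun and Fos, partners in the AP-1 dimer, moved apart, Jun falling from 327, 293 and 331 CPM to 158, 149 and 152 CPM and Fos rising from 4.45, 6.20 and 6.31 CPM to 13.3, 14.7 and 16.9 CPM.

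The stress response of the endoplasmic reticulum split in 2. Of 36 unfolded protein and integrated stress response genes, 18 fell and 14 rose (50.0% and 38.9%, against 15.4% and 14.5% of all genes). Only 4 were not called, and the median was -0.55. The members that fell included Atf4, the transcription factor of the integrated stress response, from 233, 222 and 250 CPM to 103, 130 and 79.7 CPM (log2 difference -1.17 ± 0.17, adjusted p = 0.00214), and genes it is known to activate. Psat1, of serine synthesis, went from 274, 283 and 281 CPM to 113, 121 and 119 CPM, Shmt2, of mitochondrial folate metabolism, from 255, 275 and 257 CPM to 126, 139 and 129 CPM, and Ppp1r15a, the phosphatase subunit GADD34, from 150, 134 and 161 CPM to 48.3, 51.3 and 38.2 CPM. Ddit3, the factor CHOP, fell from 66.7, 56.5 and 72.3 CPM to 11.8, 18.0 and 5.94 CPM (adjusted p = 0.0143; 0.0524 without control library 1). Asns, asparagine synthetase, fell from 339, 274 and 331 CPM to 106, 144 and 70.1 CPM (adjusted p = 0.0193; 0.0687 without control library 1 and 0.0634 without control library 3). For Atf4, Ddit3 and Asns the TGF-β libraries kept 1 order, library 2 highest and library 3 lowest, so the libraries of the group differ together in these genes.

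The members that rose were chaperones and folding enzymes of the organelle. Hsp90b1, GRP94, rose from 236, 245 and 231 CPM to 406, 373 and 485 CPM (log2 difference 0.83 ± 0.09, adjusted p = 1.34e-05), and Hspa5, BiP, from 1290, 1256 and 1202 CPM to 1649, 1410 and 1774 CPM (log2 difference 0.37 ± 0.08, adjusted p = 0.00420). Pdia6 (0.57), Pdia4 (0.53), Dnajc3 (0.60) and Manf (0.41) rose too, as log2 differences, while the sensor Ern1 fell by 1.11 and Xbp1 by 0.25.

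Enzymes that make or degrade small-molecule signals included some of the strongest changes. Of 27 tested, 9 rose and 10 fell (33.3% and 37.0%, against 14.5% and 15.4% of all genes), with a median of -0.02. Cyp4f18, a fatty acid hydroxylase that inactivates leukotriene B4, rose from 12.7, 15.7 and 15.7 CPM to 226, 247 and 218 CPM (log2 difference 3.97 ± 0.10, adjusted p = 1.84e-11). Tbxas1, thromboxane synthase, rose from 0, 0.279 and 0.170 CPM to 2.77, 3.23 and 3.91 CPM (log2 difference 4.37 ± 0.56, adjusted p = 5.53e-05); the difference was 5.16 without control library 2 and 5.11 under limma-voom. Slc7a2, an importer of arginine, rose from 12.2, 12.4 and 12.6 CPM to 69.2, 60.4 and 61.6 CPM (log2 difference 2.36 ± 0.10, adjusted p = 2.66e-09). The 2 enzymes that compete for arginine both fell: Arg1, arginase, from 231, 348 and 238 CPM to 78.4, 50.3 and 75.4 CPM (log2 difference -2.00 ± 0.26, adjusted p = 0.00470), and Nos2, the inducible nitric oxide synthase, from 63.1, 91.6 and 70.3 CPM to 16.6, 5.21 and 10.1 CPM (log2 difference -2.81 ± 0.47, adjusted p = 0.0128). Without TGF-β library 3 the Nos2 call was lost (-2.76, adjusted p = 0.0617). Beside Kynu, Haao, which follows it in the tryptophan pathway, rose by 0.97 on the log2 scale.

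Of 40 tested actin and motility genes, 21 fell and 9 rose (52.5% and 22.5%, against 15.4% and 14.5% of all genes). In their median of -0.35, Gas7 and Ush1g, each at 0 in 1 group, take fitted values. The median is the same with these 2 at their bounds. Focal adhesion proteins were among those that fell, Zyx, zyxin, from 163, 145 and 164 CPM to 55.9, 56.1 and 50.0 CPM (log2 difference -1.54 ± 0.08, adjusted p = 1.67e-08), and Tln1, talin, from 1375, 1249 and 1468 CPM to 746, 754 and 644 CPM (log2 difference -0.93 ± 0.08, adjusted p = 1.64e-06). Myo7a, a myosin that binds the USH1G protein in hair cells, rose from 153, 146 and 158 CPM to 386, 393 and 352 CPM (log2 difference 1.31 ± 0.07, adjusted p = 1.61e-08), and Dock4, an activator of Rac and Rap GTPases, from 32.0, 31.2 and 35.4 CPM to 85.5, 80.2 and 85.7 CPM.

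Growth, energy and lysosomal genes were the last lists examined. In DNA replication and mitosis 11 of 54 tested genes rose and 3 fell (20.4% and 5.56%, against 14.5% and 15.4% of all genes). None passed 2-fold, and the median was 0.26. Mki67, a marker of cycling cells, had 52.9, 63.1 and 48.1 and 88.9, 83.3 and 128 CPM (adjusted p = 0.0107, and 0.0527 without control library 1). The number called higher in that list was 3 without control library 1, 4 without control library 3, and 23 without TGF-β library 1, and the number lower was 1 without control library 1, control library 2 or TGF-β library 1. In glycolysis and the hypoxia response 11 of 38 rose and 12 fell (28.9% and 31.6%, against 14.5% and 15.4% of all genes). Pfkp, a phosphofructokinase, fell from 387, 410 and 408 CPM to 178, 176 and 155 CPM and Ndrg1 from 394, 441 and 422 CPM to 178, 146 and 143 CPM. Hif1a rose, as given above. Without control library 1, 7 genes of this list were called higher. Of 73 nuclear genes of oxidative phosphorylation 62 were not called, 4 rose and 7 fell (5.48% and 9.59%, below the background). In this list leaving out single libraries gave 0 to 3 rises and 2 to 16 falls (0 rises without control library 2 or 3, 2 falls without TGF-β library 1, 16 without TGF-β library 2). Of 42 lysosomal genes 15 rose and 9 fell (35.7% and 21.4%, against 14.5% and 15.4% of all genes). Ctsd, cathepsin D, rose from 5436, 5109 and 5472 CPM to 10532, 11321 and 9010 CPM. The members that fell included 5 subunits of the proton pump, such as Atp6v1b2 (-0.44).

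TGF-β cells were also compared directly with the other treated cells. The 12 rises and 12 falls below were chosen on the same TGF-β libraries, so their counts here are a description. Against IL-10 cells, 2223 of 12148 genes were higher after TGF-β (18.3%) and 2426 lower (20.0%), and against LPS cells 3379 were higher (27.8%) and 3560 lower (29.3%). Levels in this part are CPM scaled over all 12 cell libraries, given as means ± SD (n = 3). Of the 12 largest rises against control, 11 were called higher than in both IL-10 and LPS cells. Gpc1 was the exception, at 1.83 ± 0.334 CPM in IL-10 and 3.28 ± 1.42 CPM in TGF-β cells (0.83, adjusted p = 0.126; called without TGF-β library 3, 1.14, 0.0450, and under limma-voom, 0.99, 0.0279). Of the 12 largest falls, 11 were called lower than in both. Serpinb1a was not called against IL-10 (-3.42, adjusted p = 0.0929) or LPS (-2.98, 0.110), though it was against IL-10 without TGF-β library 2 (-6.44, 0.0424), and against LPS without LPS library 1 (-3.60, 0.00374) or TGF-β library 2 (-6.00, 0.0426).

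LPS is a bacterial activator of TLR4. Several genes that were low in TGF-β cells had their highest level in LPS cells. Pilrb1 measured 6.88 ± 0.579 CPM in control, 145 ± 20.6 in LPS, 2.66 ± 0.423 in IL-10 and 0.464 ± 0.104 in TGF-β cells, so that TGF-β and LPS cells differed by -8.27 on the log2 scale. Gbp7 measured 18.1 ± 1.67 CPM in LPS and 0.0877 ± 0.0923 in TGF-β cells, and Tnip3 51.4 ± 0.552 and 0.277 ± 0.0751. Gas7 was present in each of the other groups, at 19.6 ± 0.626 CPM in control, 63.5 ± 7.75 in LPS and 20.5 ± 3.78 in IL-10 cells. Ccr1 was low in both, at 1.81 ± 0.689 CPM in LPS and 1.02 ± 0.341 in TGF-β cells (-0.80, adjusted p = 0.0237). That call was lost under limma-voom (0.189) and without LPS library 2 (-0.47, 0.171), TGF-β library 2 (0.0835) or TGF-β library 3 (0.0950).

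IL-10, like TGF-β, is a cytokine that restrains inflammation, and the 2 shared some directions in level but not others. C1qa stood at 6.16 ± 1.41 CPM in IL-10 and 19.0 ± 9.61 in TGF-β cells (1.63, adjusted p = 8.32e-04), both above the 0.161 ± 0.0975 CPM of control. Spp1 was higher in IL-10 than in TGF-β cells, at 48690 ± 5344 against 26418 ± 2460 CPM (-0.88, adjusted p = 7.44e-08). Nos2 was opposite: 238 ± 51.8 CPM in IL-10, 73.9 ± 14.6 in control and 10.5 ± 5.61 in TGF-β cells (-4.49 between TGF-β and IL-10, adjusted p = 3.49e-05). Apoe stood at 15539 ± 975 CPM in IL-10 cells, near the 15327 ± 347 of control, and at 45048 ± 4075 in TGF-β cells (1.54, adjusted p = 5.42e-12). Arg1, a marker often used for the response to anti-inflammatory cytokines, was 288 ± 92.4 CPM in IL-10 cells, near the 268 ± 64.6 of control. It was 67.1 ± 15.2 CPM in TGF-β and 0.213 ± 0.0846 in LPS cells. Smad7 was higher in TGF-β than in IL-10 (1.83, adjusted p = 5.82e-04) and LPS cells (2.82, 5.58e-06), and without TGF-β library 1 by 1.18 and 2.17. Tnf, at 4.09 ± 0.608 and 4.02 ± 0.799 CPM, and Cd63, at 2127 ± 137 and 2020 ± 255 CPM, were not called between IL-10 and TGF-β. Il1b was lower in TGF-β than in IL-10 cells (-0.69, adjusted p = 0.0237), a call lost under limma-voom (0.141) and without TGF-β library 2 (0.0901) or 3 (0.0797).

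**Figure D4:**
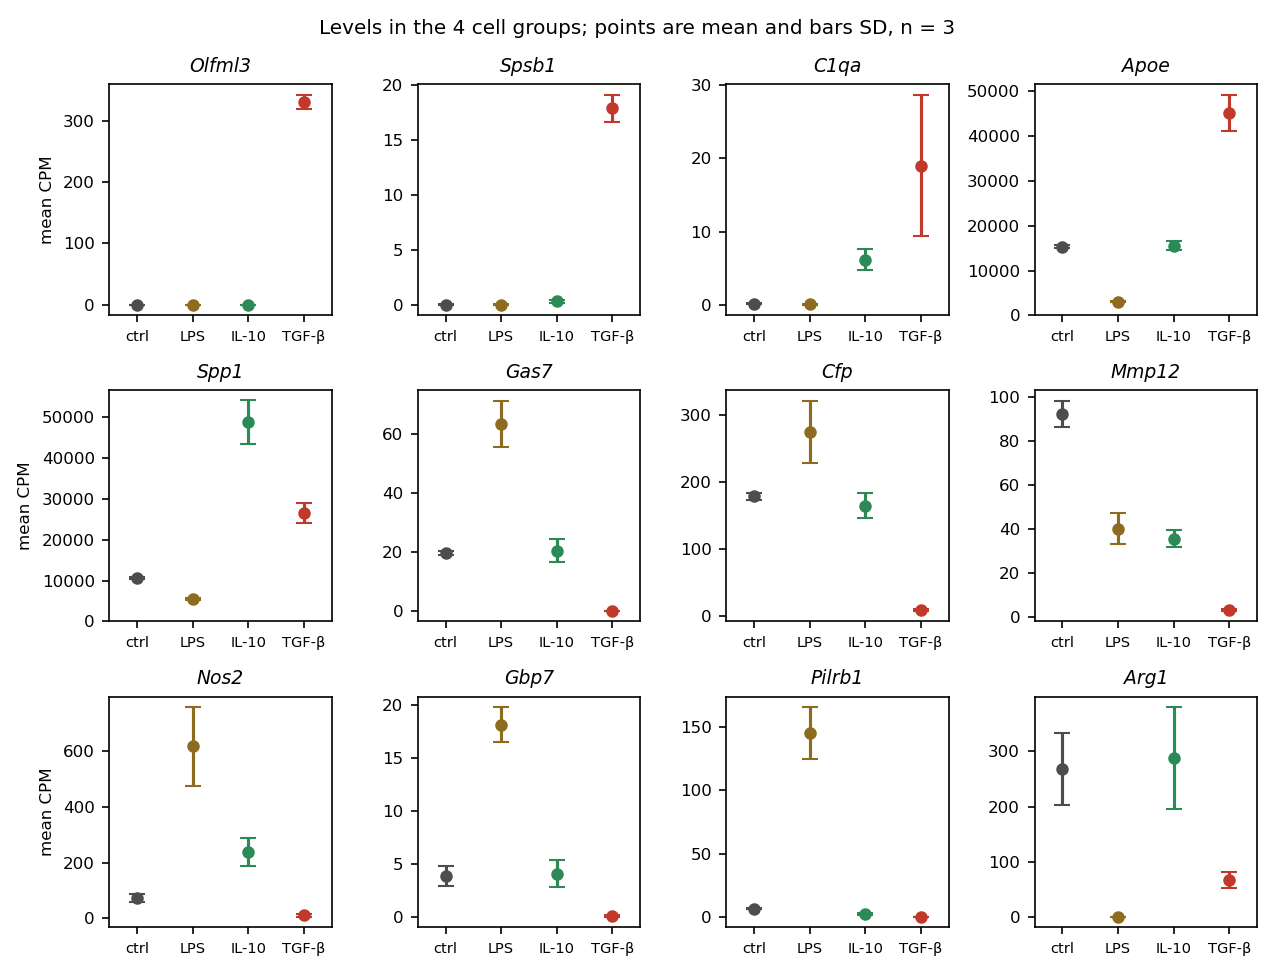
Mean CPM (points, linear axes) with SD over 3 libraries (bars) of 12 genes in control, LPS, IL-10 and TGF-β cells. Olfml3 and Spsb1 are high in TGF-β cells alone among the 4 groups, Gas7 and Cfp are low there alone, and Spp1 is highest in IL-10 cells.

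The EV libraries of the same treatments gave a shallower and less even readout of these genes. Control EV libraries held 5645725 to 17978753 counts and TGF-β EV libraries 4561948 to 9804074, and 19.58% to 50.00% of genes were at 0 in a library. No gene of 9093 tested was called between TGF-β and control EVs in either direction by edgeR, with 360 at an unadjusted p under 0.05; DESeq2 called 46 higher and 31 lower and limma-voom none. A test of whether the TGF-β difference itself was unlike in EVs and in cells called 37 of 11954 genes (0.310%), 16 higher and 21 lower in EVs. Without any one cell library only 1 and 2 were called, and without single EV libraries 31 to 232 and 34 to 340. Of the 37 genes, 23 had at least 1 EV library at 0 and 14 had counts in all 6. The test took 1 spread per gene from cell and EV libraries together, so it may understate the spread of the EVs.

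For some abundant genes that rose in cells, the EV values lay in the other direction. Apoe had 280409, 65484 and 70796 counts in control EVs and 13750, 38295 and 13597 in TGF-β EVs, that is 13117, 11584 and 9478 CPM against 3277, 3979 and 2355 CPM. The EV groups did not overlap, and the difference between compartments was -3.44 ± 0.32 on the log2 scale (SE, adjusted p = 0.00296). Cst3 stood at 725, 845 and 821 CPM in control EVs and at 550, 480 and 448 CPM in TGF-β EVs. DESeq2 called Apoe (-1.92, adjusted p = 7.39e-04) and Spp1 (-1.66, 0.0212) between the EV groups. Spp1, C1qb, Ctss and Csf1r also had negative EV differences (-1.58, -1.46, -1.41 and -1.94, none called by edgeR), with compartment differences of -2.93, -4.34, -2.43 and -2.66. Cd63, not called in cells, was lower in TGF-β EVs too, at 473, 773 and 274 CPM against 1665, 987 and 1448 CPM in control EVs. Its EV difference was -1.43, not called by edgeR, so negative EV differences were not limited to genes that rose in cells. Leaving out any one cell library ended the calls of Spp1, C1qb, Ctss and Csf1r (adjusted p = 0.0904 to 0.199), while limma-voom did not call C1qb (0.152), Cst3 (0.104) or Csf1r (0.151) and RLE scaling not Csf1r (0.0537).

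Some rare transcripts did the reverse. Tmem119 had no count in the 3 control EV libraries and 263, 121 and 494 counts in TGF-β EVs, and Skil none and then 95, 831 and 404 counts. Smad7 had 0, 0 and 2 counts in control EVs and 19, 111 and 121 in TGF-β EVs. None of the 3 was called between EV groups (adjusted p = 0.999 for each). The difference between compartments was called for Skil (9.22, adjusted p = 0.0443) and Tmem119 (9.52, 0.0463), as fitted values that depend on the prior count since the control EVs were at 0. Leaving out any one cell library ended both calls (0.176 to 0.225), as did limma-voom (6.01, 0.244 and 5.71, 0.302), and that of Tmem119 ended under RLE scaling (0.0514) and without a filter (0.0531), that of Skil without TGF-β EV library 3 (0.0514). Gas7, lost from TGF-β cells, had 430, 44 and 275 counts in control EVs and 0, 39 and 1 in TGF-β EVs, so 2 TGF-β EV libraries, 1 of them by a single count, held a transcript that no TGF-β cell library held.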

How the data were processed

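RNA was extracted as total RNA from BV2 cells and their EVs, and cDNA libraries were made with SMART-Seq v4 and Nextera XT and 18 PCR cycles and read as paired 150-base reads on a HiSeq X, per the labels' protocols. This preparation does not mark strand, so reads of overlapping or antisense genes cannot be told apart, and reads of near-identical genes may be split. The deposited tables hold raw counts per gene symbol, as the authors made them: whole numbers, not normalized, for 13290 genes. The submitters' processing notes name DESeq2. Not given in the sources used here: aligner, counter, annotation and build. Summed over the 24 libraries, the lowest gene total was 240, and no gene with a lower total was analysed here. Of the names, 14 are numbers and 6 entries repeat a symbol; these were tested but not named. The recipient cells named in the study's design were not analysed here.

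Columns were matched to groups by treatment and compartment. The control columns are identical in the 3 tables of a compartment and were used once. Each comparison was fitted in edgeR 4.0.16 (R 4.3.3) on the counts of the groups compared, with TMM scaling, filterByExpr, robust quasi-likelihood fits and Benjamini-Hochberg adjustment, and a gene was called at an adjusted p under 0.05. SE is that of the log2 difference, and EVs and cells were compared by an interaction term. Other settings tried were DESeq2 1.42.0, edgeR with RLE scaling, voom with quality weights from limma 3.58.1, a filter of 50 counts on average or of 1 count in all, a joint fit of the 12 libraries of cells or of EVs, and each library left out in turn. The procedure was tested on simulated counts with 200 changed genes: for TGF-β against control cells it recovered 85.7% of 2-fold and 98.6% of 8-fold changes among 11697 genes, with 17 false calls.

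The members and gene lists were chosen with earlier results of these data known. Of 965 list entries, 840 are in the files, 1 of them by an older symbol. Genes were named by rule: the 12 largest rises and falls with at least 50 counts on average in the higher group and no overlap, up to 5 members per list by adjusted p, every member of the lists of ligands, receptors, SMADs, homeostatic and complement genes, and 8 genes set singly (Tnf, Il1b, Nos2, Arg1, Apoe, Spp1, Smad7 and Cd63). Some members counted in the lists are not reported here by name. Further list members, and the EV examples, were picked after their values were seen. The floor for a gene without counts was 3 counts per library, 0.0866 to 0.115 CPM in these 6 cell libraries. Ratios of small counts have exact 95% intervals, and floors and intervals cover counting error only, since PCR copies are not independent molecules. Promoter windows (250 bases before to 50 after the start) are from RefSeq, GRCm38.p6, for 27025 genes. Gene order is from RefSeq, and exon lengths and overlaps are from GENCODE vM21. Both may differ from the authors' annotation.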

Additional observations from a re-analysis of the deposited data

Results flagged for a closer look

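The TGF-β difference was called unlike in EVs and in cells, by the interaction test in edgeR, for 8 of the genes described above. That test took 1 spread per gene from cell and EV libraries together, so its p-values may understate the spread of the EVs. For Apoe its SE was 0.32, against 0.45 for the EV difference fitted on EVs alone, and for Cst3 0.23 against 0.35. Log2 differences in EVs minus those in cells were -3.44 for Apoe, -2.93 for Spp1, -4.34 for C1qb, -2.35 for Cst3, -2.43 for Ctss and -2.66 for Csf1r. All 6 rose in TGF-β cells, and in EVs none of them was called by edgeR. For Skil and Tmem119 the fitted values were 9.22 and 9.52, with no count in any control EV library. The control and TGF-β EV libraries held fewer counts than any of the cell libraries and had more genes at 0. The part of this in the differences was not tested.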

How the results depend on the processing

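The counts of genes called between TGF-β and control cells ranged over the other settings from 1693 to 2019 higher and 1722 to 2090 lower, and from 1214 to 1862 and 1335 to 1995 with 1 library left out. With 1 library left out, the counts against IL-10 cells were 1843 to 2124 higher and 1999 to 2316 lower, and against LPS cells 3017 to 3264 and 3178 to 3470. Between EV groups, DESeq2 called 46 genes higher and 31 lower, where edgeR and limma-voom called 0; the cause was not tested. The difference between compartments was called for 16 genes higher and 21 lower in EVs, but for 462 and 318 by DESeq2, for 0 and 4 by limma-voom, for 9 higher with no filter, and for 1 to 232 higher and 2 to 340 lower with 1 library left out; the cause was not tested. In simulated EV counts edgeR recovered 0% of 2-fold, 1.43% of 8-fold and 25% of 64-fold changes among 7954 genes, so differences of such sizes could go uncalled in the EVs. No paired analysis was possible because the columns are matched to groups and carry no number that the labels tie to a shared culture or day.

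Over 249 named genes and 2973 settings of a gene, 2860 kept direction and side of the threshold, 41 (17 genes) lost the call, 50 (20 genes) gained it and 22 (12 genes) turned direction. None of the 12 genes was called with all libraries. The log2 difference turned under limma-voom for Furin (0.06), Smad4 (0.04), Trim33 (0.04) and Gpr34 (-0.00), without control library 1 for Gpr34 (-0.01) and Bin1 (-0.02), without control library 2 for Acvr2b (-0.03), Cd109 (-0.02) and Cr1l (0.03), without TGF-β library 1 for Acvr2b (-0.14), Stub1 (0.02) and Cr1l (0.02), without TGF-β library 2 for Acvr2a (0.04), Smad4 (0.03), Trim33 (0.08) and Bin1 (-0.02), and without TGF-β library 3 for Furin (0.10), Cd109 (-0.05), Smad4 (0.10), Wwp1 (-0.00), Gpr34 (-0.23) and C3 (0.07). With 1 library left out, the other end of the range was -0.27 for Acvr2a, 0.27 for Cd109, -1.02 for Smad4, -0.21 for Trim33, -0.12 for Stub1 and Cr1l, 0.25 for Gpr34 and -0.35 for C3. Against IL-10 cells, Tnf turned to 0.10 and 0.01 without IL-10 library 2 or 3 and to 0.05 and 0.09 without TGF-β library 1 or 2, and Cd63 to 0.02 without TGF-β library 3, with -0.19 and -0.16 at the other end of their ranges. Fitted sizes of genes with few counts in 1 group depended on the tool: limma-voom gave 8.85 for Ush1g (10.26 by DESeq2), 7.83 for Cxcl14, 6.25 for F11r, -10.27 for Gas7, -7.50 for Klk1b11, -5.89 for Gbp7, -5.58 for Rtp4 and -5.48 for Serpinb1a. Counts of list members moved past 1.5 times under other settings for ligands (2 higher by DESeq2 and with all 12 libraries), SMADs (7 higher with all 12), lipid transport (2 lower by limma-voom), chemokines (1 higher by limma-voom and at 50 counts), replication (21 higher by DESeq2, 17 with all 12), oxidative phosphorylation (12 lower by limma-voom) and iron (2 higher by limma-voom and with all 12).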
